A study of Homo sapiens with 4 samples.

Results

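The libraries hold 452 antisense long noncoding RNAs, genes whose symbol ends in -AS and a digit, among 27106 genes in all. They were chosen on their level: 451 had a mean of at least 20 normalized reads over the 4 libraries, and SGO1-AS1, the targeted RNA, was added at a mean of 18.4. RNA sequencing was done on total RNA of THP-1, an established line of leukaemic monocytes of human origin that carries the MLL-AF9 fusion. At day 5, 2 libraries came from cells given an antisense oligonucleotide (ASO), a synthetic strand made to base-pair with a chosen RNA, against SGOL1-AS1, the older name of SGO1-AS1. The other 2 libraries came from cells given a non-targeting ASO. Nothing labels the libraries as separate cultures, so the p-values cover the spread among these 4 samples, which could be technical alone. No second ASO against the target is labelled, so an effect of losing the RNA and an effect of this ASO cannot be told apart.

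A natural antisense RNA is transcribed from the strand opposite to another gene, which gives it its name. Many start next to the promoter of the sense gene and run the other way, while others lie inside the sense gene or cross its end. Some are known to act on the sense gene, as CDKN2B-AS1 (ANRIL) does on the cell cycle inhibitors of its locus through Polycomb proteins, and some act elsewhere, as OIP5-AS1, the human Cyrano RNA, does on a microRNA. For most no role is established.

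The knockdown libraries held 48558537 and 41435922 gene reads and the non-targeting libraries 50855150 and 51851314. All 8 monocytic markers (LYZ, CD33, ITGAM, CSF1R, SPI1, CEBPA, CD4 and FCGR1A) were in the table, with a summed level of 104568 and 99423 normalized reads in the knockdown and 108956 and 102867 in the non-targeting libraries. Of the 8, CD4 (log2 fold change -0.35; limma, adjusted p = 0.000193) and FCGR1A (-0.37, adjusted p = 0.00118) were called lower in the knockdown, and the part of this in the results below was not tested. None of 3 erythroid genes was, and 1 of 4 lymphocyte and 2 of 5 epithelial and fibroblast genes were. The names of the 2 knockdown columns are not spelled out by the labels, and these columns were assigned by elimination. The directions below all depend on it.

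The promoters of the RNAs that the results turn on are given first, as 300 bases from 250 before to 50 after the annotated start (RefSeq, GRCh38.p14). Capitals mark 3 motifs, searched on either strand. The first is the TATA box, spelled TATAAA. Another is the CCAAT box, named by its letters. The last is the GC box, spelled GGGCGG, and matches may overlap. The windows belong to the target on the plus strand of chr3:20174036-20174335, to the RNA that fell while its sense gene rose on the minus strand of chr1:43727294-43727593, and to an RNA that rose with its sense gene on the minus strand of chr6:147204565-147204864. The last pair rose while their sense genes were not called, on the plus strand of chr2:38130855-38131154 and the minus strand of chr5:154445773-154446072.
SGO1-AS1: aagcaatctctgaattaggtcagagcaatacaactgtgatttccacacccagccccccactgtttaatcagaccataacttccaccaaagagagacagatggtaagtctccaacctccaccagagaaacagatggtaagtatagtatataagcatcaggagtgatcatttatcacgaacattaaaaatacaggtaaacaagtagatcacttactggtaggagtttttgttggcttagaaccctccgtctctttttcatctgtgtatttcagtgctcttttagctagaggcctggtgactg
ST3GAL3-AS1: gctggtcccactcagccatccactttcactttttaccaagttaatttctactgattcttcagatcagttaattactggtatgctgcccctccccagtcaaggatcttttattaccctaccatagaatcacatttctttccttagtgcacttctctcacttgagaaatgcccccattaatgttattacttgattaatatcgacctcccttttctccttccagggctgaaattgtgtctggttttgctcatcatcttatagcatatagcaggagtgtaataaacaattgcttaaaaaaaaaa
STXBP5-AS1: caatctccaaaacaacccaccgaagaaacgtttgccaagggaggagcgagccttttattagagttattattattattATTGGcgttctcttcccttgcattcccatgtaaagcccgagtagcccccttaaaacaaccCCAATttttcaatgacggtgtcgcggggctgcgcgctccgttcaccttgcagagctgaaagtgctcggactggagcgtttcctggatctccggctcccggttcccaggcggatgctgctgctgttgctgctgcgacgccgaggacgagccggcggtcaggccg
CYP1B1-AS1: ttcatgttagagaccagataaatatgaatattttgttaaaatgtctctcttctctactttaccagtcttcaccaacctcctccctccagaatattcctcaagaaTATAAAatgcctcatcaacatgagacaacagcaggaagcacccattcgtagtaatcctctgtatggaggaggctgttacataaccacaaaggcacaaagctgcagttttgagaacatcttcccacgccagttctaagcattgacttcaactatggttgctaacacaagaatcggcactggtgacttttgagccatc
SAP30L-AS1: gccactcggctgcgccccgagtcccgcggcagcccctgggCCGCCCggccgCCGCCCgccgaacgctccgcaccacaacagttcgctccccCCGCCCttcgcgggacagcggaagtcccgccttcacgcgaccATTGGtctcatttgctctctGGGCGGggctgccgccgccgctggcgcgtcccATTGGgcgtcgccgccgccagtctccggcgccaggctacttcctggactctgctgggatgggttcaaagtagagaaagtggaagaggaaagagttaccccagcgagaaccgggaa

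The windows differ in composition. GC content was 41.3% for SGO1-AS1, 38.3% for ST3GAL3-AS1, 55.3% for STXBP5-AS1, 41.3% for CYP1B1-AS1 and 69.7% for SAP30L-AS1. The SGO1-AS1 and ST3GAL3-AS1 windows hold none of the 3 motifs, and the CYP1B1-AS1 window holds a TATA box and no other motif. The SAP30L-AS1 window, with 2 CCAAT boxes and 4 GC boxes, shares 274 of its bases with the window of SAP30L, read on the other strand. A promoter window was found for 348 of the 452 RNAs. A GC box occurred in 62.6% of these 348 windows and in 45.0% of all 35116 windows of the table, a TATA box in 6.32% and 11.5%, and a CCAAT box in 31.6% and 34.6%. Median GC content was 64.5% in the antisense windows and 58.7% in all windows. The antisense RNAs were chosen on their level and the 35116 windows were not, so these gaps cannot be assigned to antisense RNAs as such. A match is a description of the letters and says nothing about binding.

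The target itself was barely detected. SGO1-AS1 (ENSG00000231304; plus strand of chromosome 3, 20174244 to 21145967, GRCh38) had 12 and 17 reads in the knockdown libraries and 24 and 21 in the non-targeting libraries. Its normalized count was 11.5 and 19.4 in the knockdown and 23.0 and 19.8 in the non-targeting libraries. Both knockdown values lay below both non-targeting values, the nearest pair being 19.4 and 19.8. The log2 fold change, always knockdown minus non-targeting and on the log2(value + 1) scale, was -0.48 ± 0.37 (SE), and the test was not passed (limma, adjusted p = 0.555; n = 2 each). Scaled by the authors' size factors, the knockdown read rate divided by the non-targeting rate was 0.706 (exact 95% Poisson interval 0.427 to 1.15, counting error only). Without knockdown library 1 the log2 fold change was -0.13 and without knockdown library 2 it was -0.84. A loss was not detectable at this depth, and the level does not check the labels. Its sense partner SGO1, which protects centromeric cohesion, had 1744 and 1835 normalized reads in the knockdown and 1727 and 1767 in the non-targeting libraries (log2 fold change 0.03, adjusted p = 0.84). In GENCODE 29 the nearest annotated starts of the pair lie 63 bases apart. The promoter window printed above belongs to another start, the one RefSeq gives, and shares 0 bases with the window of SGO1. Of the RNA's exonic bases, 679 lie in exons of SGO1. Whether reads were counted by strand is not given in the sources used here, so for this and every overlapping pair, reads in shared stretches could belong to either gene.

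Few antisense RNAs changed, and those that did were mostly higher in the knockdown. Of the 452, 8 were called higher and 2 lower (limma on all 19398 genes with a mean of at least 10, Benjamini-Hochberg adjusted p under 0.05). These are 1.77% and 0.442% of the RNAs, where 0.851% of all tested genes were called higher and 3.4% lower. EdgeR on the recovered reads called 7 higher and 2 lower, all 9 among the 10 limma calls, against 0.82% and 2.87% of all tested genes. DESeq2 called 2 and 1, against 0.508% and 2.91% of the genes to which it gave an adjusted p. Without the mean-variance trend limma called 0 genes of either direction, the antisense RNAs included, and 1178 genes were higher and 1159 lower at an unadjusted p under 0.05. Leaving out 1 library gave 4 to 16 higher and 1 to 5 lower RNAs; the 16 came without knockdown library 2, the 5 without knockdown library 1, and the lowest counts without either non-targeting library. When library totals were set equal, 235 genes were called higher and 293 lower, against 165 and 660 with the deposited scaling, and 10 antisense RNAs were higher and 1 lower. With library medians set equal the counts were 290 and 651 genes and 13 and 2 antisense RNAs, and with quantile normalization 142 and 334 genes and 5 and 2 antisense RNAs. At an unadjusted p under 0.05, 49 RNAs were higher and 11 lower, against 6.17% and 11% of all tested genes. Both knockdown values lay above both non-targeting values for 133 RNAs and below them for 58, against 21.6% and 25.1% of all tested genes (46.7% either way). A fold of 1.5 either way was passed by 19 of the 452 RNAs, against 5.41% of all tested genes, which reach down to a mean of 10. Among tested genes with a mean of at least 20, 495 of 16914 passed it. At a mean of 20 to 50 it was passed by 13 of 145 RNAs and 333 of 2827 genes. The counts were 5 of 172 and 108 of 3071 at 50 to 200, and 1 of 134 and 54 of 11016 at 200 and more.

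**Figure D1:**
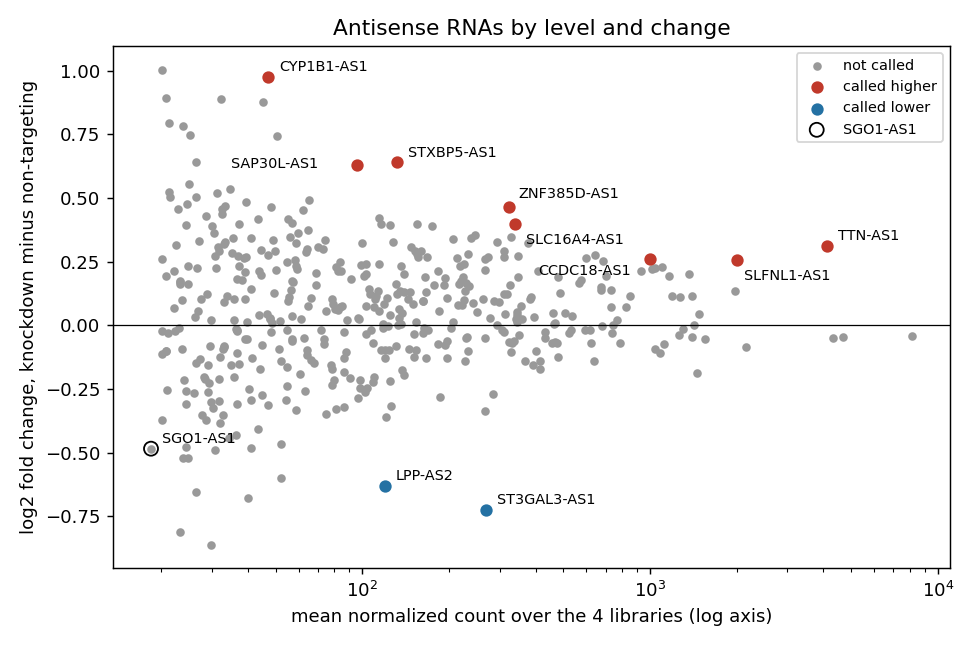
Each point is 1 of the 452 antisense RNAs, with its mean normalized count over the 4 libraries (log axis) against its log2 fold change, knockdown minus non-targeting. Red points (8) were called higher and blue points (2) lower by limma, the ring is SGO1-AS1, and the spread of fold changes narrows as the level rises.

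The clearest fall was that of ST3GAL3-AS1 (ENSG00000229444; minus strand of chromosome 1, 43709392 to 43727343), which lies inside the gene of the sialyltransferase ST3GAL3. It had 188 and 218 normalized reads in the knockdown and 341 and 329 in the non-targeting libraries. Every knockdown value lay far below every non-targeting value, a log2 fold change of -0.72 ± 0.12 (limma, adjusted p = 0.000614; n = 2 each). ST3GAL3, on the opposite strand, rose slightly. It had 5068 and 5285 in the knockdown and 4500 and 4565 in the non-targeting libraries (log2 fold change 0.19 ± 0.05, adjusted p = 0.0397). For every 100 normalized reads of ST3GAL3 there were 3.71 and 4.12 of the antisense RNA in the knockdown and 7.58 and 7.21 in the non-targeting libraries. Of the 469 exonic bases of ST3GAL3-AS1, 113 lie in exons of ST3GAL3.

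The other called fall was LPP-AS2 (minus strand of chromosome 3, 188151206 to 188154057). It starts beside LPP, which encodes a focal adhesion protein. LPP-AS2 had 102 and 86.7 normalized reads in the knockdown and 152 and 140 in the non-targeting libraries (log2 fold change -0.63 ± 0.16; limma, adjusted p = 0.0264; n = 2 each). LPP itself was at 6061 and 6187 in the knockdown and 6024 and 6368 in the non-targeting libraries, overlapping ranges with a log2 fold change of -0.02 (adjusted p = 0.917). The call of LPP-AS2 ended without knockdown library 2 or either non-targeting library, in DESeq2 and when library totals were set equal.

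Among the RNAs that rose, TTN-AS1 was the most abundant by count (plus strand of chromosome 2, 178521183 to 178779963). TTN encodes titin, the giant spring protein of muscle. TTN-AS1 had 4828 and 4302 normalized reads in the knockdown and 3622 and 3718 in the non-targeting libraries (log2 fold change 0.31 ± 0.06; limma, adjusted p = 0.00245; n = 2 each). The groups did not overlap. TTN was far lower per length, at 0.946 normalized reads per kilobase of exon against 199 for TTN-AS1. TTN had 125 and 145 in the knockdown and 85.5 and 95.02 in the non-targeting libraries, a log2 fold change of 0.57 ± 0.17 that missed the threshold (adjusted p = 0.0548). Exons of TTN cover 55.1% of the exonic bases of TTN-AS1, the largest share among the 10 called RNAs.

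STXBP5-AS1 (minus strand of chromosome 6, 146841901 to 147204614) was the 1 called RNA whose sense partner was called in the same direction. It had 157 and 164 normalized reads in the knockdown and 106 and 99.7 in the non-targeting libraries (log2 fold change 0.64 ± 0.15; limma, adjusted p = 0.016; n = 2 each). STXBP5, which encodes tomosyn, an inhibitor of vesicle fusion, had 4261 and 4224 in the knockdown and 3620 and 3747 in the non-targeting libraries (log2 fold change 0.20 ± 0.05, adjusted p = 0.031). Neither gene's groups overlapped. The nearest annotated starts of the pair lie 7 bases apart. The call of STXBP5-AS1 ended without non-targeting library 2 and in DESeq2.

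ZNF385D-AS1 (plus strand of chromosome 3, 21542816 to 21579959) lies 396849 bases beyond the end of the target. It had 389 and 362 normalized reads in the knockdown and 271 and 273 in the non-targeting libraries, which did not overlap (log2 fold change 0.46 ± 0.11; limma, adjusted p = 0.0125; n = 2 each). It was the 1 called gene among the 12 tested genes within 2000000 bases of the target, a count that includes the target itself. The window was chosen after the values were seen, and 4.25% of all tested genes were called. Its sense partner ZNF385D, a zinc finger gene, was low, with 26.9 and 30.8 in the knockdown and 27.8 and 23.5 in the non-targeting libraries, which overlapped (adjusted p = 0.842). The ZNF385D-AS1 call was lost without either non-targeting library, in DESeq2 and once GC content and exonic length were corrected for.

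CYP1B1-AS1 (plus strand of chromosome 2, 38073447 to 38231651) had the largest fold change among the called RNAs. The promoter window printed above, at 38130855 to 38131154, lies inside this GENCODE span and away from its first base. That window belongs to the start RefSeq gives, which need not be the start nearest to CYP1B1. The normalized count of CYP1B1-AS1 was 61.4 and 63.9 in the knockdown and 29.8 and 32.9 in the non-targeting libraries (log2 fold change 0.98 ± 0.24; limma, adjusted p = 0.02; n = 2 each). CYP1B1, a cytochrome P450 that oxidizes oestrogens and aromatic hydrocarbons, had 1686 and 1252 in the knockdown and 1252 and 1088 in the non-targeting libraries, the middle values being the same (log2 fold change 0.32 ± 0.10, adjusted p = 0.0717). The call of CYP1B1-AS1 ended without knockdown library 2 or non-targeting library 1 and after quantile normalization, and DESeq2 gave it no adjusted p.

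SAP30L-AS1 (minus strand of chromosome 5, 154329437 to 154445850) had 115 and 117 normalized reads in the knockdown and 83.5 and 66.8 in the non-targeting libraries. Its log2 fold change was 0.63 ± 0.18 (limma, adjusted p = 0.0492; n = 2 each). Though the promoter windows of the pair are nearly the same DNA, SAP30L, a subunit of a histone deacetylase complex, was at 1814 and 1746 in the knockdown and 1818 and 1809 in the non-targeting libraries (log2 fold change -0.03, adjusted p = 0.88). This call was the least stable of the 10 and ended in 11 of 16 alternatives, among them edgeR (adjusted p = 0.0641), DESeq2 and the omission of either knockdown library or of non-targeting library 2.

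A further 3 RNAs were called higher. SLC16A4-AS1 had 397 and 376 normalized reads in the knockdown and 309 and 278 in the non-targeting libraries (log2 fold change 0.40 ± 0.11; limma, adjusted p = 0.0328; n = 2 each). Its sense partner SLC16A4, a monocarboxylate transporter family member, had 13.4 and 14.8 in the knockdown and 7.68 and 4.70 in the non-targeting libraries, an uncalled difference (adjusted p = 0.225). SLFNL1-AS1 had 2172 and 2198 in the knockdown and 1892 and 1768 in the non-targeting libraries (log2 fold change 0.26 ± 0.06, adjusted p = 0.0181). CCDC18-AS1 had 1106 and 1072 in the knockdown and 937 and 880 in the non-targeting libraries (log2 fold change 0.26 ± 0.07, adjusted p = 0.0445). In each of these the knockdown values lay above the non-targeting values. The partners SLFNL1 and CCDC18 had log2 fold changes of 0.04 and 0.08 (adjusted p = 0.931 and 0.542). The SLFNL1-AS1 call ended without non-targeting library 2. The calls of CCDC18-AS1 and SLC16A4-AS1 ended without knockdown library 1 or either non-targeting library and in DESeq2, that of CCDC18-AS1 with no filter on low genes, and that of SLC16A4-AS1 after quantile normalization and after the GC and length correction.

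**Figure D2:**
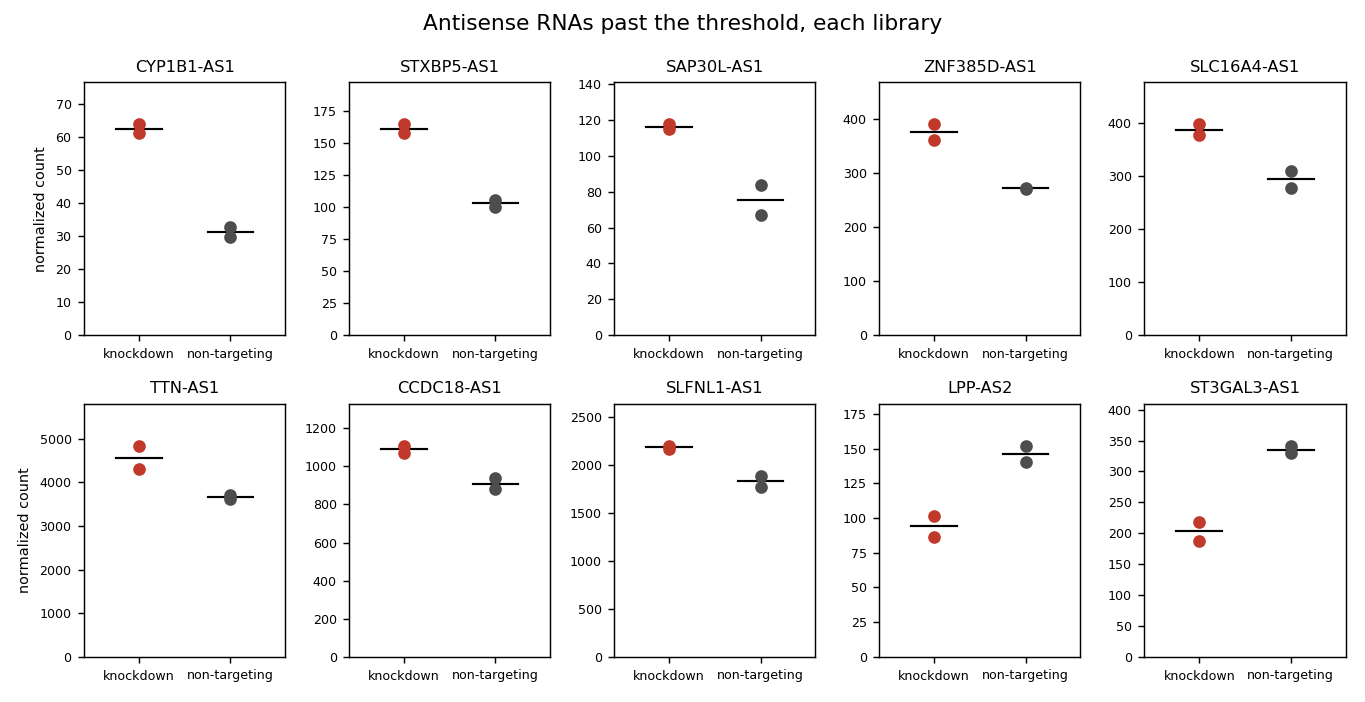
Normalized counts of the 10 called antisense RNAs, 1 panel each, with knockdown libraries (red) left of non-targeting libraries (grey), 1 point per library and a bar at the mean of 2; axes start at 0. In all 10 panels the groups are separate, with 8 higher and 2 lower in the knockdown.

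Among the RNAs with the largest fold changes, those at low counts mostly missed the test. KLF3-AS1, named for the repressor KLF3, had 24.0 and 29.7 normalized reads in the knockdown and 9.60 and 16.9 in the non-targeting libraries (log2 fold change 1.005 ± 0.37; limma, adjusted p = 0.142; n = 2 each). HRG-AS1 was at 43.2 and 41.1 in the knockdown and 21.1 and 23.5 in the non-targeting libraries (adjusted p = 0.0819). ZNF497-AS1 and SDK1-AS1 had log2 fold changes of 0.89 and 0.79 (adjusted p = 0.161 and 0.222). In the other direction TPRG1-AS1 had 17.3 and 16.0 in the knockdown and 29.8 and 30.1 in the non-targeting libraries (log2 fold change -0.81 ± 0.32, adjusted p = 0.181). ZFY-AS1, MYL12-AS1 and CD81-AS1 had log2 fold changes of -0.86, -0.68 and -0.65 (adjusted p = 0.13, 0.186 and 0.412), of which CD81-AS1 overlapped between the groups. With knockdown library 2 left out ZFY-AS1 passed the test, lower (adjusted p = 0.0279), and with knockdown library 1 left out CD81-AS1 did (adjusted p = 0.0278). At such levels the choice of members bears on direction: 13 of the 452 reached a mean of 20 in the knockdown alone and 7 in the non-targeting group alone. KLF3-AS1, just inside the limit, had a mean of 20.04 and IDH1-AS1, just outside, one of 19.8. The table also holds no gene with fewer than 2 reads in knockdown library 1, so RNAs lost from that library are not analysed here.

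Of the 6 antisense RNAs with the highest counts, TTN-AS1 and SLFNL1-AS1 passed the test and 4 did not. OIP5-AS1 had 7840 and 8149 normalized reads in the knockdown and 7861 and 8593 in the non-targeting libraries, which overlapped (log2 fold change -0.04 ± 0.05; limma, adjusted p = 0.768; n = 2 each). FGD5-AS1 was at 4459 and 4719 in the knockdown and 4729 and 4748 in the non-targeting libraries (log2 fold change -0.05 ± 0.05, adjusted p = 0.725). CCDC144NL-AS1 and MAP3K5-AS2 had log2 fold changes of -0.05 and -0.08 (adjusted p = 0.721 and 0.551). The signs of OIP5-AS1, FGD5-AS1 and CCDC144NL-AS1 turned positive, at 0.02, 0.01 and 0.0095, when library totals were set equal. Per length FGD5-AS1 was the highest of the 452, at 909 normalized reads per kilobase of exon, and OIP5-AS1 stood at 640. The median antisense RNA had 43.5 and the median tested sense partner 321, and the partner was higher per length in 325 of 402 pairs.

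Over all 452 the median log2 fold change was 0.06 (quartiles -0.09 and 0.22), with 270 above and 182 below 0, against -0.01 for all tested genes. By library, the median distance from the non-targeting mean was 0.08 and 0.04 in the knockdown libraries and 0.03 and -0.03 in the non-targeting libraries. The gap between the groups' nearest libraries was thus smaller than that between the 2 non-targeting libraries. Level moved with this difference. At a mean of 20 to 50 the antisense RNAs had a median of 0.05 and all tested genes 0.09, at 50 to 200 the medians were 0.06 and 0.04, and at 200 and more they were 0.05 and -0.03. Of the 134 antisense RNAs at 200 and more, 5 rose and 1 fell, where 1.15% and 5.66% of the 11016 tested genes at that level did. Median SEs were 0.29, 0.18 and 0.10 for the antisense RNAs in the 3 level ranges and 0.06 for the sense partners, so changes of the size seen in called coding genes could not be resolved in the low ones.

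Other classes of noncoding RNA had similar or higher medians. The 238 divergent transcripts (-DT) and the 285 intergenic LINC RNAs with a mean of at least 20 had medians of 0.07 each. Of the -DT RNAs 2 were called higher (0.84%) and 0 lower, and of the LINC RNAs 8 (2.81%) and 2 (0.702%). The 38 intronic transcripts (-IT) had a median of 0.33, with 3 called higher (7.89%) and 0 lower. All 3917 genes of GENCODE types other than protein-coding, antisense RNAs among them, had a median of 0.10. Of these 73 were called higher (1.86%) and 15 lower (0.383%), close to the 1.77% and 0.442% of the antisense RNAs. More calls higher than lower was thus not particular to the antisense RNAs. The 12673 protein-coding genes had a median of -0.03, with 89 (0.702%) and 631 (4.98%). The lists were described and not tested against each other. The 43 antisense RNAs with at least 50% of their exonic bases in coding exons had a median of -0.05, on the side of the coding genes, with TTN-AS1 the 1 called. The part of strand in this was not tested.

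**Figure D3:**
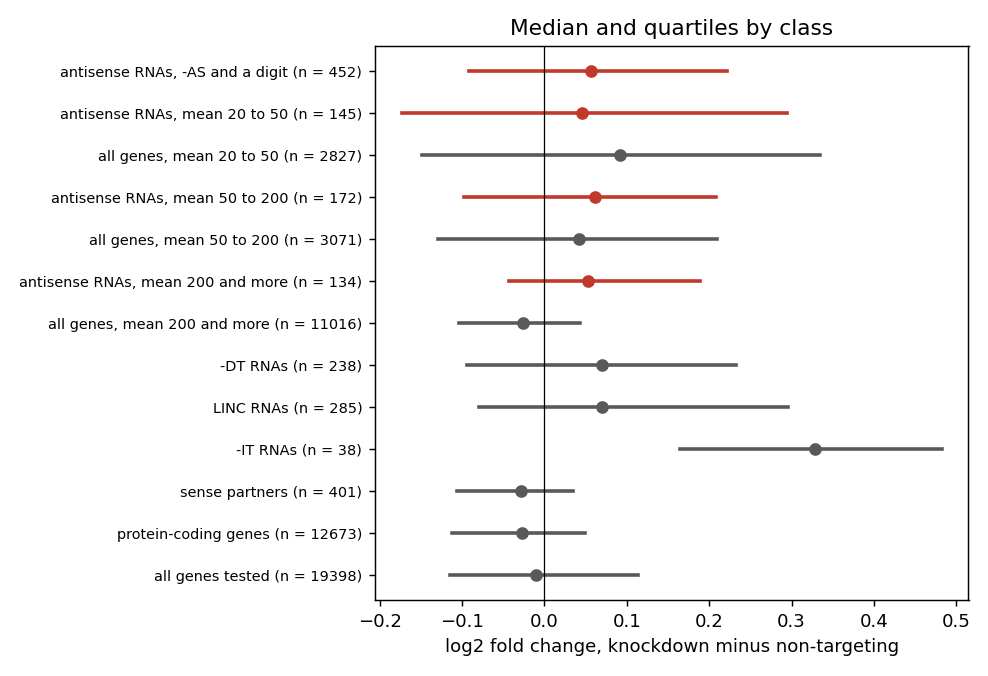
Median log2 fold change (point) and quartiles (line), knockdown minus non-targeting, for the antisense RNAs (red) and for other classes (grey), with the number tested beside each name. The antisense RNAs lie at 0.05 to 0.06 in each level range, the -IT RNAs at 0.33 and protein-coding genes at -0.03.

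By their place in GENCODE 29, 304 of the antisense RNAs are head to head with the sense partner (an annotated start of each within 2000 bases, on opposite strands), 135 overlap it otherwise on the opposite strand, 6 are apart, 1 is on the same strand and 6 were not placed. Head-to-head RNAs had a median log2 fold change of 0.06, with 3 called higher (0.987%) and 1 lower (0.329%), and overlapping RNAs 0.07, with 5 (3.70%) and 1 (0.741%). Over all tested genes 0.851% were called higher and 3.4% lower, so the head-to-head share called higher was near that of all genes. The 3 head-to-head calls that were higher are STXBP5-AS1, CYP1B1-AS1 and SAP30L-AS1, and the lower one is LPP-AS2. Exons were shared with the partner by 340 of 446, and the median over the 446 was 7.19% of exonic bases. The 106 with no shared exon had a median of 0.05, with 3 called higher (2.83%) and 0 lower, and the 340 had 0.07, with 5 (1.47%) and 2 (0.588%), against the same 0.851% and 3.4% of all tested genes.

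The fold changes of the antisense RNAs and of their sense partners had little in common at the precision of these libraries. A partner was tested for 405 of the 452, and the 2 fold changes had the same sign in 211 pairs (52.1%). Across these pairs Pearson's r was 0.12 and Spearman's rho 0.13. The points share the 4 libraries, and 12 RNAs share 6 partners. Both were higher in 98 pairs and both lower in 113, while the antisense RNA was higher and the partner lower in 143 and the reverse held in 51. The median was 0.06 for the antisense RNAs of these pairs and -0.03 for the partners. Pearson's r was 0.14 over the 292 head-to-head pairs and 0.11 over the 104 overlapping pairs. Where the antisense RNA had a mean of at least 50 it was 0.19 (276 pairs), and at 200 and more 0.18 (121 pairs). The median SE of the antisense RNAs was 0.18 and their quartiles were -0.09 and 0.22. Small shared changes could thus go unseen, and a low r does not show that the pairs are unrelated.

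**Figure D4:**
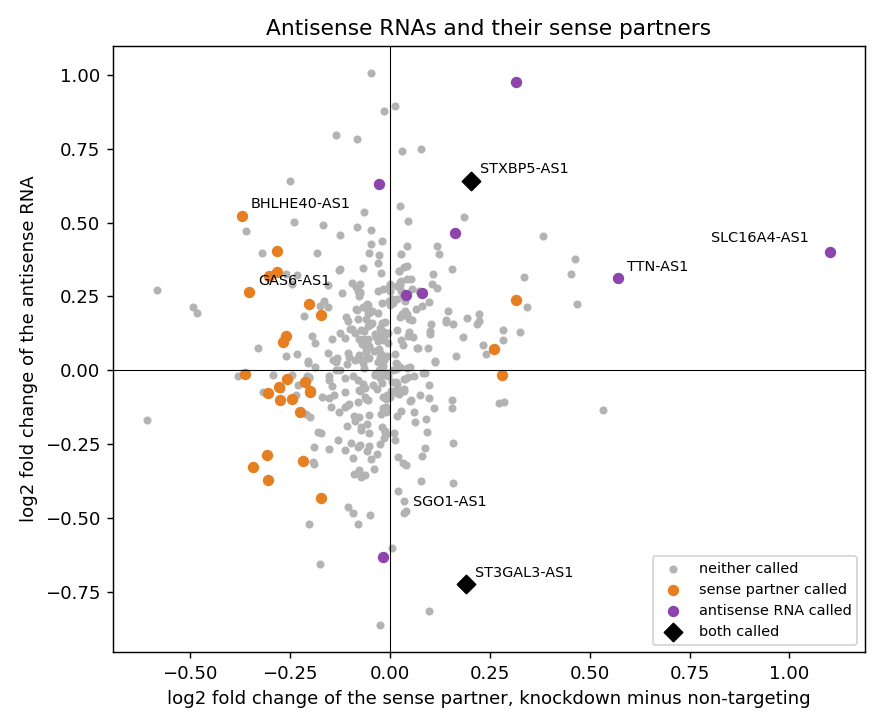
Log2 fold change of the sense partner (horizontal) against that of the antisense RNA (vertical), both knockdown minus non-targeting, for 405 pairs. Orange points mark called partners, purple points called antisense RNAs and black diamonds the 2 pairs in which both were called. The orange points on the left spread both above and below 0 on the vertical axis.

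The sense partners were called for 29 of the RNAs, 24 lower and 5 higher. None of the RNAs opposite the 24 lower partners was called by limma: 15 were below and 9 above 0, with a median of -0.05 against -0.27 for the partners, and edgeR called 0 too, as did DESeq2 among the 8 to which it gave an adjusted p. With 3.4% of all tested genes and 0.442% of the antisense RNAs called lower, a count of 0 in 24 is near the background and is no result about these RNAs. At an unadjusted p under 0.05, 1 of the 24 passed, GAS6-AS1, which was higher. Opposite the 5 higher partners, ST3GAL3-AS1 was called lower and STXBP5-AS1 higher, and the median was 0.07 against 0.26 for those partners. Since the 24 partners were picked for being low, their gap is a description. GAS6, the ligand of the TAM receptor kinases, had 1550 and 1581 normalized reads in the knockdown and 2052 and 1944 in the non-targeting libraries (log2 fold change -0.35 ± 0.06; limma, adjusted p = 0.00159; n = 2 each). GAS6-AS1 had 703 and 603 in the knockdown and 579 and 508 in the non-targeting libraries, higher and not overlapping (log2 fold change 0.26 ± 0.10, adjusted p = 0.133). GAS6-AS1 passed the test, higher, when knockdown library 2 was left out (adjusted p = 0.0102) and with GC and length corrected (adjusted p = 0.0152). There were 45.4 and 38.2 reads of GAS6-AS1 per 100 of GAS6 in the knockdown and 28.2 and 26.1 in the non-targeting libraries.

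In further pairs with a lower sense partner the antisense RNA had few reads. BHLHE40, a circadian and hypoxia-linked repressor, was at 1616 and 1613 normalized reads in the knockdown and 2094 and 2079 in the non-targeting libraries (log2 fold change -0.37; limma, adjusted p = 0.000706). BHLHE40-AS1 was at 21.1 and 29.7 in the knockdown and 17.3 and 16.9 in the non-targeting libraries (0.52 ± 0.34, adjusted p = 0.466). NAPA, a membrane fusion adaptor, fell by 0.28 on the log2 scale and NAPA-AS1 stood at 70.0 and 60.4 in the knockdown and 49.0 and 48.9 in the non-targeting libraries (adjusted p = 0.361). STARD4, the sterol carrier, fell by 0.36, and STARD4-AS1 had 38.4 and 34.2 in the knockdown and 35.5 and 37.6 in the non-targeting libraries, which overlapped (log2 fold change -0.01, adjusted p = 0.988). SREBF2, the sterol response factor, fell by 0.26 and MID1IP1, a regulator of fatty acid synthesis, by 0.30, with SREBF2-AS1 at 0.12 and MID1IP1-AS1 at 0.32 (adjusted p = 0.882 and 0.622).

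The other 4 of the 10 pairs had antisense values below 0, as STARD4-AS1 also had. H1-10, a linker histone, fell by 0.34, and H1-10-AS1 was at 94.9 and 49.0 normalized reads in the knockdown and 115 and 64.0 in the non-targeting libraries (log2 fold change -0.33 ± 0.27; limma, adjusted p = 0.587). Its replicates differed from each other more than its groups did. HOMER3, a scaffold protein, fell by 0.31, with HOMER3-AS1 at -0.29 (adjusted p = 0.464), and RNF213, a giant interferon-responsive ubiquitin ligase, fell by 0.30, with RNF213-AS1 at -0.37 (adjusted p = 0.665). PYCARD, the inflammasome adaptor, fell by 0.31. PYCARD-AS1, with 90.5% of its exonic bases in exons of PYCARD, had 189 and 187 in the knockdown and 208 and 189 in the non-targeting libraries (log2 fold change -0.08 ± 0.13, adjusted p = 0.821).

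Of the genes that process antisense and double-stranded RNA, 22 were listed and 21 tested. In this list 2 fell (9.52%) and 0 rose, against 3.4% and 0.851% of all tested genes, a share that rests on 2 genes. The 2 were ADAR, the interferon-responsive adenosine deaminase of double-stranded RNA, at 59288 and 64547 normalized reads in the knockdown and 70423 and 71988 in the non-targeting libraries (log2 fold change -0.20; limma, adjusted p = 0.0254; n = 2 each), and the exonuclease XRN1 (-0.20, adjusted p = 0.0465). RNASEH1, the nuclease that cuts RNA paired with DNA, stood at a log2 fold change of 0.04 (adjusted p = 0.831).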

How the data were processed

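The authors' deposited table holds a normalized signal for 27106 Ensembl genes and 4 libraries: read counts divided by 1 size factor per library. Per the submitters' processing notes STAR 2.5.1b, DESeq2 and GRCh38 were involved, in unstated roles. Annotation, counting tool and strand setting: not given in the sources used here. All values are whole reads times 1 step per library (100% within 0.01 of a read). Of the Ensembl identifiers, 26579 were matched to symbols (20 symbols stand on 2 rows) and 26077 to positions in GENCODE 29, among them 449 of the 452 antisense RNAs. The kits were Qiagen RNeasy Plus Mini and NEBNext Ultra II, per the labels.

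The limma test (3.58.1, R 4.3.3) used log2(value + 1), a scale that understates changes of low genes, and a mean-variance trend. It ran on the 19398 genes whose mean was 10 or more, with p-values adjusted by Benjamini-Hochberg and called under 0.05. Alternatives used other filters, pseudocounts, scalings and variance models, each library left out, edgeR 4.0.16 and DESeq2 1.42.0 on recovered reads. A GC and length correction with mgcv 1.9.3 was added after seeing the data. The test was checked on simulated counts. Knockdown libraries are numbered in column order. The RNAs and lists were chosen with earlier results of these data known. The 34 RNAs named by rule are the target, those called, the 6 largest rises and falls, the 6 highest means, the 10 with the most clearly called partners and the 4 that differed most from the partner. 1 of them is not reported here. CDKN2B-AS1 and IDH1-AS1 fall outside that rule.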

Additional observations from a re-analysis of the deposited data

How the results depend on the processing

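The median log2 fold change of the antisense RNAs was positive in every alternative run, and leaving out each library in turn gave 0.04 to 0.08. It exceeded the median of all tested genes by 0.07 with the deposited scaling and by 0.02 with quantile normalization (0.03 against 0.01), less than the spread between libraries (SD 0.0325). With the same total in every library it was 0.11, the median of all genes 0.05 and the excess 0.06, 1 antisense RNA and 293 genes were called lower, and 57.3% of pairs had the same sign. Counts over all genes moved with DESeq2 (66 higher, 379 lower, with 2 and 1 antisense RNAs). They also moved with quantile normalization (334 lower, 5 antisense RNAs higher) and with the same median in every library (290 higher, 13 antisense RNAs higher). Without the mean-variance trend 0 genes were called in either direction, the antisense RNAs included. At an unadjusted p under 0.05, that limma fit had 56 of the 452 antisense RNAs higher and 10 lower. Of the 19398 tested genes, 1178 were higher and 1159 lower at the same cut. Leaving out each library gave 87 to 309 genes higher and 334 to 960 lower, 4 to 16 antisense RNAs higher and 1 to 5 lower, 47.2% to 54.1% of pairs of the same sign, and -0.84 to -0.13 for SGO1-AS1. Among the 106 antisense RNAs with no exon shared with the partner, 3 were called higher (2.83%) and 0 lower, against 0.851% and 3.4% of all tested genes. At an unadjusted limma p under 0.05, 13 of the 106 were higher and 2 lower, against 6.17% and 11% of all tested genes. Under other scalings or edgeR, the uncalled RNAs that turned sign did so at small values. Omission of 1 library also turned signs, with wide ranges for some RNAs, given below. STARD4-AS1 was at 0.0033 in edgeR, 0.0036 with the same median and 0.0427 with the same total. With quantile normalization FGD5-AS1 was at 0.0012 and OIP5-AS1 at 0.0173, and with the same total FGD5-AS1 was at 0.0105, OIP5-AS1 at 0.0170 and CCDC144NL-AS1 at 0.0095. Leaving out each library gave -1.3526 to 0.0435 for CD81-AS1, -0.7963 to 0.1427 for H1-10-AS1, -0.7845 to 0.0417 for RNF213-AS1, -0.067 to 0.3018 for SREBF2-AS1, -0.1045 to 0.024 for OIP5-AS1 and -0.0933 to 0.0673 for STARD4-AS1. Calls gained when a library was left out included CD81-AS1 and H1-10-AS1, lower without knockdown library 1 (limma, adjusted p = 0.0278 and 0.0282), and ZFY-AS1, lower without knockdown library 2 (-1.19, adjusted p = 0.0279). The cause was not tested. DESeq2 gave no adjusted p to genes it filtered, SGO1-AS1 and CYP1B1-AS1 among them. Depth limits the low RNAs, and with 1 library left in a group it is assumed to vary like the others. No paired analysis was possible because the replicate numbers of the knockdown columns are not those of the labels, and the groups share fewer than 2 numbers.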
